A study of Mus musculus with 5 samples.

Results

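The enzymes and transporters of glycolysis, the pentose phosphate pathway and the TCA cycle were followed in Th2 cells with and without PARP-14 by ChIP-Seq of elongating RNA Polymerase II. The list held 40 genes, chosen by their role in these pathways, and a gene was accepted where a line of the deposited gene table carried its name and lay on its locus on mm9. Of the 40 genes, 24 were found this way among 11608 lines. A further 7 (G6pdx, Pgls, Rpia, Pdha1, Idh2, Ogdh and Mdh1) had a line on their locus that bore the name of another gene, and they were kept apart. The other 9 (Slc2a3, Pfkm, Taldo1, Dlat, Pdk1, Idh1, Idh3a, Sucla2 and Fh1) had no line and were not analysed here.

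Naive CD4+ T cells from spleens of young adult C57BL6 mice, either Parp14+/+ or Parp14-/-, were activated through CD3 and CD28 and cultured with 10 ng/ml of IL-4 and an antibody to interferon gamma for 3 days, then expanded with IL-2 and IL-4 for 4 days, which yields Th2 cells. PARP-14 is an ADP-ribosyltransferase that acts with STAT6, the transcription factor activated by IL-4, and PJ34 is an inhibitor of this class of enzymes that does not single out PARP-14. Cells of each genotype were sequenced untreated and after PJ34, 1 library for each of the 4 conditions. The labels give 10 µM of PJ34 applied to differentiated cells, whereas the study's methods describe culture with a lower dose. The fifth sample is Input chromatin mixed in equal parts from both genotypes, for which no value per gene was used. The Parp14-/- mice lack PARP-14 in every cell of the body, so the genotypes also differed during development of the naive T cells. The number of mice or cultures behind a library is not given in the sources used here.

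The antibody recognized RNA Polymerase II phosphorylated at serine 2 of its tail, the form that elongates through gene bodies and is known to build up toward and past the 3′ end. The value of a gene is its average peak height, the highest pile-up of overlapping fragments in each active region of the gene, averaged over those regions. Active regions are intervals that the authors called enriched over Input with SICER, joined across the 8 libraries that the table holds, of which 4 are used here. They were assigned to a gene when they touched the stretch from 2500 bp before its start to 5000 bp after its end, a rule that gave the table's own number of regions in 11604 of 11608 lines. A height can thus come from outside the gene, and 18 of the 24 genes had another gene in their regions. In 6 of them (Hk2, Aldoa, Tpi1, Pkm2, Ldha and Slc16a3) all 4 values were the same as those of a neighbouring line. In a population of cells, a lower height can be fewer cells with polymerase on the gene or less polymerase per cell, and these cannot be told apart.

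Glycolysis converts glucose to pyruvate, which is reduced to lactate in the cytosol or is passed to pyruvate dehydrogenase and the TCA cycle in mitochondria. The pentose phosphate pathway branches off at glucose 6-phosphate and supplies NADPH and ribose for nucleotides. Activated T cells are known for a strong rise in glucose uptake and lactate output, driven in large part by Myc and HIF-1.

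Library depth had been made equal by the authors, and the libraries held 11692, 12014, 10228 and 8841 intervals in the order Parp14+/+, then Parp14+/+ + PJ34, then Parp14-/-, then Parp14-/- + PJ34, in which every set of 4 values is given here. At Parp14 itself (chr16:35832964-35871586) the heights were 8, 11, 6.67 and 6.67, and its intervals covered 22873, 20836, 2686 and 3286 bp. The height alone therefore separated the genotypes little, while the covered length was lower in both Parp14-/- libraries. Of the Th2 markers (Gata3, Il4, Il5, Il13 and Il4ra) all 5 had an interval in both Parp14+/+ libraries and 4 in both Parp14-/- libraries, and their summed heights were 312, 261, 255 and 207. Il4, the defining cytokine, had heights of 61, 39, 29 and 18. Of the 7 T cell markers 7, 6, 5 and 5 had an interval, and the summed heights were 91.5, 109.5, 96.5 and 88.5. Markers of CD8 T cells had no interval in any library, with heights of 4, 6, 3 and 4 for Cd8a. The summed heights of the B cell markers were 51.5, 49.5, 46 and 40.5, and the only one with an interval was Cd79a, whose regions also hold Arhgef1 and Rps19. The 2 myeloid markers with a line had summed heights of 9, 12.5, 6 and 7.5, and 1, 1, 0 and 1 of them had an interval. The regions of that marker also hold another gene, and its PJ34-treated genotype ratio was 1.55. Neither NK cell marker had a line. The Th2 markers, Il4ra aside, were thus lower in both Parp14-/- libraries, and their part in the values of the pathway genes was not tested.

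The stretches before the start of Dld, with the second highest untreated ratio of Parp14+/+ to Parp14-/- among the 24 genes, and of Pgam1 and Mdh2, with the lowest, are shown as the promoters at either end of the genotype comparison. No interval touched Dld or Mdh2 in any library, and the highest Parp14-/- summit of Pgam1 lay in Exosc1. These ratios are thus not shown to come from polymerase on the genes behind these promoters. The stretches were read from the reference and run 5′ to 3′ on the strand of the gene, on NCBIM37, the assembly of mm9. Only the far part is shown, up to the first base that an annotated exon covers. Capitals mark 6 motifs that were searched for on both strands. The E-box, which Myc binds together with its partner Max, was searched as CACGTG. The core of the site that HIF-1 binds was searched in both of its common spellings. The first, which every such E-box also holds, was ACGTG, and the second spelling of the core was GCGTG. The box near the start of some promoters that positions the polymerase, the TATA box, was searched as TATAAA. The GC box, to which the general activator Sp1 binds in many housekeeping promoters, was searched as GGGCGG. The last motif, recognized by the general factor known as NF-Y, was CCAAT.
Dld, chr12:32036303-32036513, minus strand: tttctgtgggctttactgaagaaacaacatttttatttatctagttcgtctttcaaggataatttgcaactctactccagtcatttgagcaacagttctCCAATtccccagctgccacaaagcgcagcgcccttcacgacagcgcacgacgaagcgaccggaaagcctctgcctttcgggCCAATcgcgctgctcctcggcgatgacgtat
Pgam1, chr19:41986111-41986360, plus strand: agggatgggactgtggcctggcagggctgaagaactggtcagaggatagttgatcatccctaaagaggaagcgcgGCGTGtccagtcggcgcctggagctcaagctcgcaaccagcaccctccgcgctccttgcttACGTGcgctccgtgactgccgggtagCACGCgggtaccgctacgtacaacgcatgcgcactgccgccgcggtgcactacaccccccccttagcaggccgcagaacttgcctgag
Mdh2, chr5:136254269-136254349, plus strand: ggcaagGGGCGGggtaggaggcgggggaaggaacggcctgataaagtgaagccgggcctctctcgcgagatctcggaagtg
Dld and Pgam1 thus differ in these letters. The motif of NF-Y stood 151 and 70 bp before the start of Dld, whereas Pgam1 held the HIF-1 cores, the first spelling at 114 bp and the second at 175 and 88 bp before its start. The printed part of Mdh2 held a GC box at 244 bp, and the part not printed held the second HIF-1 spelling at 97 bp. For Eno1, which had the highest ratio of the 24, an annotated exon covers the far end of the window of 250 bp. No part of it was thus left to show. The window of Eno1 held both the second HIF-1 spelling, at 144 and 120 bp, and the motif of NF-Y, at 133 and 111 bp. The HIF-1 core thus stood at both ends of the genotype comparison. Over the windows of 250 bp before all 24 genes, exons included, the first spelling of the HIF-1 core was found in 9 (37.5%) against 21.1% of 11605 windows of the table, and the second in 12 (50.0%) against 42.8%. The GC box was found in 17 (70.8% against 55.6%), the motif of NF-Y in 12 (50.0% against 34.4%), the E-box in 1 (4.17% against 8.13%) and the TATA box in 1 (4.17% against 7.15%). The windows of the table also cover lines without an interval, whereas all 24 genes had one in Parp14+/+, so the shares are not a like comparison. The motif shares are counts of letters in a window, which say nothing of whether a factor was bound there.

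The glycolytic genes held the tallest peaks of the list, and the genes of mitochondrial pyruvate oxidation and the TCA cycle the lowest. The median height of the 24 genes was 12.25, 13, 12.25 and 11.75, against 9.25, 10, 9 and 8.5 over 8551 lines with an interval in any of the 4 libraries. The 7 genes from triose phosphate to lactate had median heights of 18, 24, 22 and 12, and the 3 transporters 16, 18, 14 and 14. The 8 TCA genes with a line on their locus had median heights of 6.75, 6.25, 6.12 and 6.38, below the median of all lines in each library. They take in Idh2, Ogdh and Mdh1, found by locus alone, whereas the glycolytic genes were all accepted by name. Idh2 and Mdh1 had no interval in any library, so the 8551 lines do not include them and the sets are not alike. Peak height is a maximum that is not divided by gene length, so this order between genes is a description of peaks and not of transcript output.

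**Figure D1:**
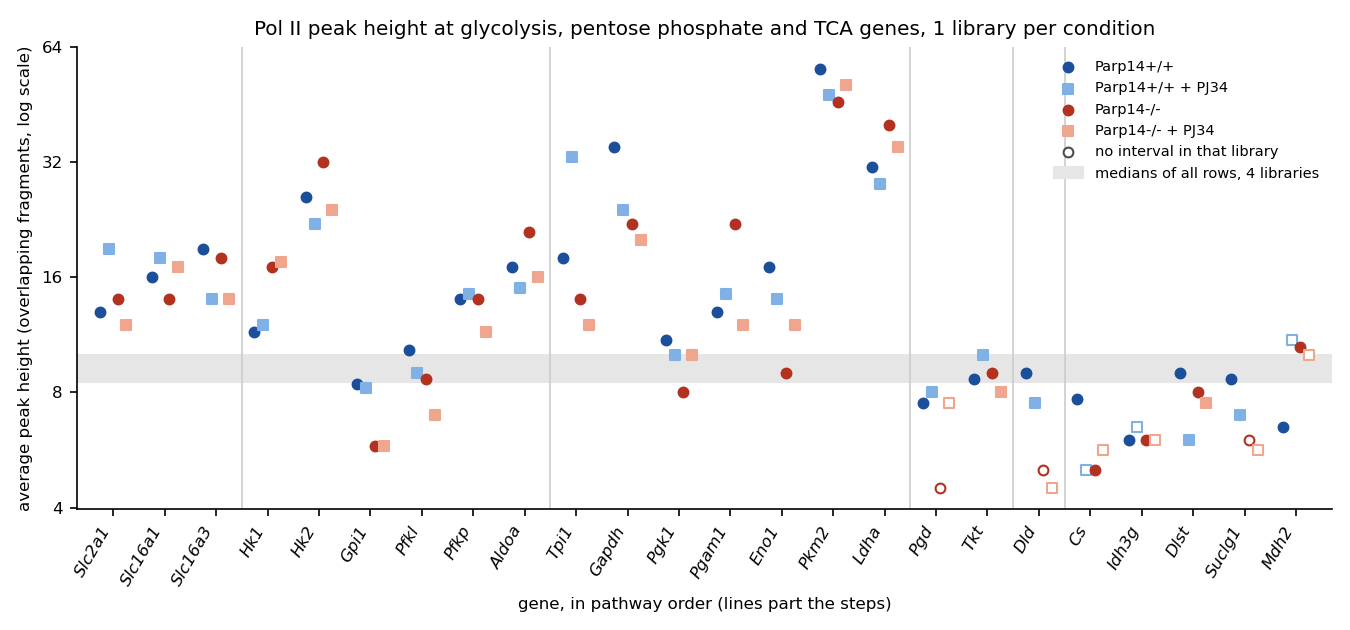
Average peak height (overlapping fragments, log scale) of the 24 genes in pathway order, 1 point for each library, open where SICER called no interval in that library, with the medians of all lines as a grey band. Pkm2 lies highest with 56, 48, 46 and 51, and the genes from Pgd to Mdh2 lie near or under the band.

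Pkm2, the pyruvate kinase of the last step of glycolysis (chr9:59504415-59527182), had the tallest peak of the list in each library, with heights of 56, 48, 46 and 51. Its ratio of Parp14+/+ to Parp14-/- was 1.22 (95% counting interval 0.809 to 1.84), and 0.941 (0.621 to 1.42) in the PJ34-treated pair. Intervals covered the whole gene in all 4 libraries, and the highest summit lay 722, 850, 914 and 706 bp past its end. The summits of Parp14+/+ + PJ34 and Parp14-/- lay in Gramd2, and the others lay between annotated genes. Ldha, the subunit of lactate dehydrogenase that makes lactate (chr7:54102583-54110996), had heights of 31, 28, 40 and 35. Both Parp14-/- libraries were higher, with genotype ratios of 0.775 (0.469 to 1.27) and 0.8 (0.469 to 1.35), and the intervals of these ratios include 1. The summits lay 1335, 1303, 1335 and 919 bp before the start of the line, in an exon of a longer annotated Ldha transcript, and the neighbouring line of EG384622 has the same 4 values. All such intervals treat the heights as counts and cover counting error only.

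Hk2, the hexokinase that activated lymphocytes induce (chr6:82675041-82724453), had heights of 26, 22, 32 and 24. Its genotype ratios were 0.812 (0.465 to 1.41) and 0.917 (0.490 to 1.71), and the PJ34-treated library was the lower one in both genotypes, with ratios of 1.18 (0.644 to 2.19) and 1.33 (0.761 to 2.37). All 4 of these intervals include 1. Intervals covered between 98.5% and 100% of Hk2 in each library. Gapdh, which oxidizes glyceraldehyde 3-phosphate (chr6:125111870-125115601), had heights of 35, 24, 22 and 20. The Parp14+/+ library stood above the other 3, and the whole gene lay inside intervals in all 4. The summits of 35, 24 and 22 lay 478, 1150 and 638 bp past the end in an exon of Iffo1, and the summit of 20 lay in Gapdh, so the 4 heights do not come from one place. Its untreated genotype ratio was 1.59 (0.907 to 2.85), the PJ34-treated one 1.2 (0.635 to 2.29), and the ratio of Parp14+/+ to Parp14+/+ + PJ34 was 1.46 (0.843 to 2.56).

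The first question of the study was which genes carry more or less polymerase when PARP-14 is present. The limits applied were the study's main ones, a ratio above 1.4 or below 0.7 with an interval in the higher library. The study also takes smaller ratios at tall peaks, by a height on another scale than that of the table, and this was left out here (with it set at the median of each library, 16 genes in place of 10 lay beyond a limit). By the main limits 7 of the 24 genes lay above in Parp14+/+ against 11.0% of all 8551 lines, and 3 lay below against 8.99%. The genes above were Eno1, Dld, Pgd, Gapdh, Cs, Gpi1 and Suclg1, and those below were Pgam1, Mdh2 and Hk1. The rule for members asks in effect for an interval in a Parp14+/+ library, since names elsewhere in the table are off their locus, and among the 7971 lines with such an interval 11.8% lay above and 7.59% below (19.4% in either direction). The median ratio of the 24 genes was 1.13 (order-statistic interval 0.929 to 1.45) and that of all lines 1.00. Among the 10 genes with a summed height of at least 50 the median was 0.982, on the other side of 1, and 4 lay beyond a limit (40.0%) against 15.0% of such lines. Heights were also read only where an interval touched the gene in both libraries. By this measure 3 of 15 genes lay beyond a limit, against 29.9% of 4614 such lines. By the highest summit inside the gene, again needed in both libraries, 2 of 8 did, against 30.6% of 2369. These shares of the list were not above those of the table. Both measures leave out Eno1, Dld, Pgd, Cs, Suclg1, Pgam1 and Mdh2, which were beyond a limit by height, so they cannot check those genes. None of the 7 genes found by locus alone had an interval in a Parp14+/+ library, so that none of them could be counted as above, although the ratios of Mdh1 (2.33) and Rpia (1.75) were past 1.4. With these 7 the median was 1.06. The other 14 genes had ratios from 0.775 to 1.38.

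In PJ34-treated cells, 4 genes lay above the limit (Tpi1, Dld, Slc2a1 and Gpi1) against 19.8% of all lines, and Hk1 lay below against 4.58% (24.3% in either direction). Among lines with an interval in a Parp14+/+ library the shares were 21.2%, 3.59% and 24.8%. The median of all lines was itself shifted in this pair, to 1.14 (0.19 on the log2 scale), and that of the 24 genes was 1.09. Relative to the shift the median of the 24 genes was 0.955, on the other side of 1, and 3 of the 5 remained beyond a limit, Tpi1 at 2.41, Dld at 1.46 and Hk1 at 0.6. G6pdx, the entry enzyme of the pentose phosphate pathway and one of the genes found by locus alone, also lay below, with heights of 6, 5, 8 and 10 and a ratio of 0.5 (0.134 to 1.61). The remaining 19 genes had ratios from 0.8 to 1.29.

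Each counting interval was wide, and of 96 ratios over the 4 pairs and 24 genes 4 had an interval that excluded 1. They belonged to Tpi1 and Pgam1, 1 in each pair. Over all 8551 lines 3.10% of untreated genotype ratios excluded 1 in this way, 3.48% of the PJ34-treated ones, and 1.61% and 1.66% of the PJ34 ratios in Parp14+/+ and Parp14-/-. With 1 library per condition no difference here has a replicate check, and no test between conditions was made.

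**Figure D2:**
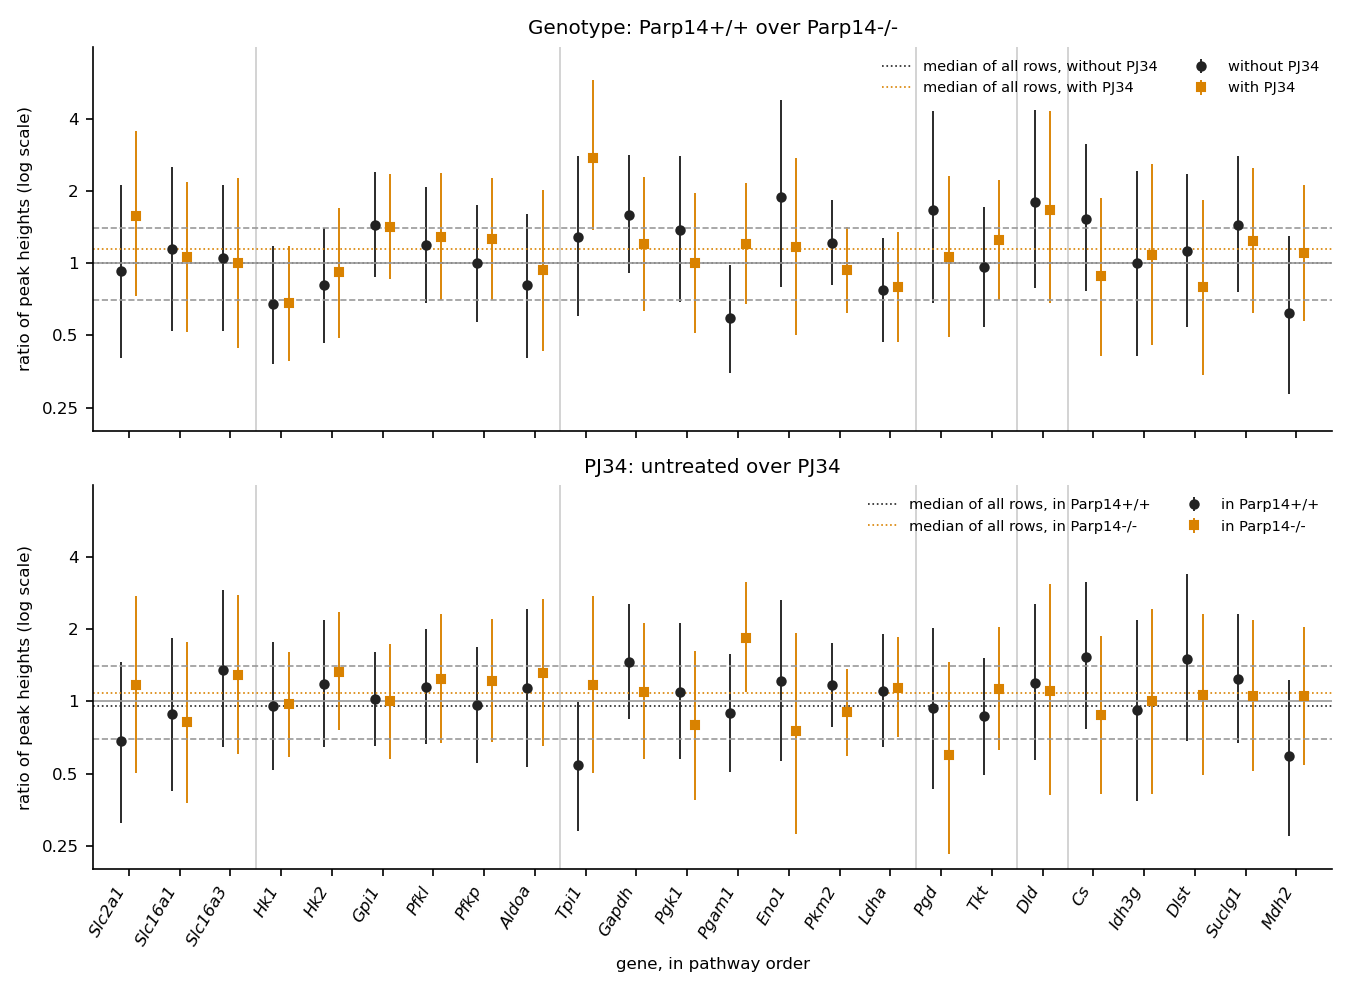
Ratios of average peak height (log scale) for the 24 genes with 95% counting intervals, the genotype ratio in the upper panel and the ratio of untreated to PJ34-treated in the lower one. Dashed lines mark 0.7 and 1.4 and dotted lines the median of all lines, and only Tpi1 and Pgam1 have bars that clear 1.

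Hk1, Gpi1 and Dld lay beyond the same limit in both genotype pairs, 3 of the 24 genes (12.5%) against 3.84% of all lines. Hk1, the hexokinase found in most tissues (chr10:61732610-61842631), had heights of 11.5, 12, 17 and 17.5. Both Parp14-/- libraries were higher than both Parp14+/+ libraries, and the ratios of untreated to PJ34-treated were 0.958 and 0.971. The genotype ratios were 0.676 (0.380 to 1.18) and 0.686 (0.390 to 1.19). In the Parp14-/- libraries the highest summits, of 18 and 21, lay in introns at chr10:61798304 and chr10:61802304, whereas in Parp14+/+ the summit of 13 lay in an intron near the 3′ end and in Parp14+/+ + PJ34 a summit of 13 lay 2530 bp past the end. The share of Hk1 covered by intervals was 59.9%, 57.2%, 60.7% and 56.9%. By covered length the PJ34-treated genotype ratio was 1.00 (62891 against 62591 bp), so this measure was level.

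Gpi1, which turns glucose 6-phosphate into fructose 6-phosphate (chr7:34987177-35015281), had heights of 8.4, 8.2, 5.8 and 5.8 over 5 active regions. Both Parp14+/+ libraries were higher, by 1.45 (0.881 to 2.41) and 1.41 (0.858 to 2.36), the second of which is 1.24 relative to the median shift. The highest summits inside the gene were 11, 13, 6 and 8, and intervals covered 30.4%, 23.6%, 22.4% and 12.8% of it. Dld, the shared dehydrogenase subunit of pyruvate dehydrogenase and 2-oxoglutarate dehydrogenase (chr12:32016429-32036263), had heights of 9, 7.5, 5 and 4.5. The ratios were 1.80 (0.788 to 4.36) and 1.67 (0.683 to 4.32). SICER called an interval in the regions of Dld, which also hold Lamb1, in both Parp14+/+ libraries and in neither Parp14-/- library. None of these intervals touched the gene itself. The highest summits of these intervals, 6 and 7, lay 1517 and 1805 bp past its end. The heights of 9 and 7.5 are averages over 2 regions and lie above these summits. They therefore came at least in part from outside the called intervals.

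Tpi1, which interconverts the triose phosphates (chr6:124760733-124764430), stood out in the Parp14+/+ + PJ34 library. Its heights were 18, 33, 14 and 12, and the library with 33 lay far above the other 3. The PJ34-treated genotype ratio was 2.75 (1.38 to 5.85), the ratio of Parp14+/+ to Parp14+/+ + PJ34 was 0.545 (0.289 to 0.997), and the untreated genotype ratio was 1.29 (0.604 to 2.79). The summit of 33 lay in an exon of Tpi1 at chr6:124764128, near its start, where the highest summit inside the gene was 10 in Parp14-/- + PJ34. The value of 18 in Parp14+/+ came from a summit 5069 bp past the end of Tpi1, outside annotated genes, and the summits of Parp14-/- and Parp14-/- + PJ34 lay in exons of Spsb2. The 4 heights therefore do not measure the same place. Intervals covered 100%, 80.3%, 0% and 59.4% of the gene, so by covered length the ratio of Parp14+/+ to Parp14+/+ + PJ34 was 1.25, the reverse of the ratio of heights.

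Pgam1, the phosphoglycerate mutase of most tissues (chr19:41986361-41993155), had heights of 13, 14.5, 22 and 12. The Parp14-/- library was the high one, with an untreated genotype ratio of 0.591 (0.349 to 0.981) and a ratio of Parp14-/- to Parp14-/- + PJ34 of 1.83 (1.09 to 3.15), whereas the PJ34-treated genotype ratio was 1.21 (0.679 to 2.17). The highest summit of the Parp14-/- library, 31, lay 14589 bp past the end of Pgam1 in an exon of Exosc1, and that of Parp14-/- + PJ34, 15, lay 14557 bp past it in an intron of Exosc1. In Parp14+/+ and Parp14+/+ + PJ34 the highest summits, 18 and 17, lay 829 and 1005 bp past the end. Intervals covered 0%, 83.7%, 0.809% and 0.809% of Pgam1 itself. In both Parp14-/- libraries the intervals reached only 55 bp of Pgam1 and no summit lay inside it. The height of 22 that put Pgam1 below the limit is an average over 2 regions. Its highest summit, 31, was not on Pgam1, and the place of the rest was not determined.

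**Figure D3:**
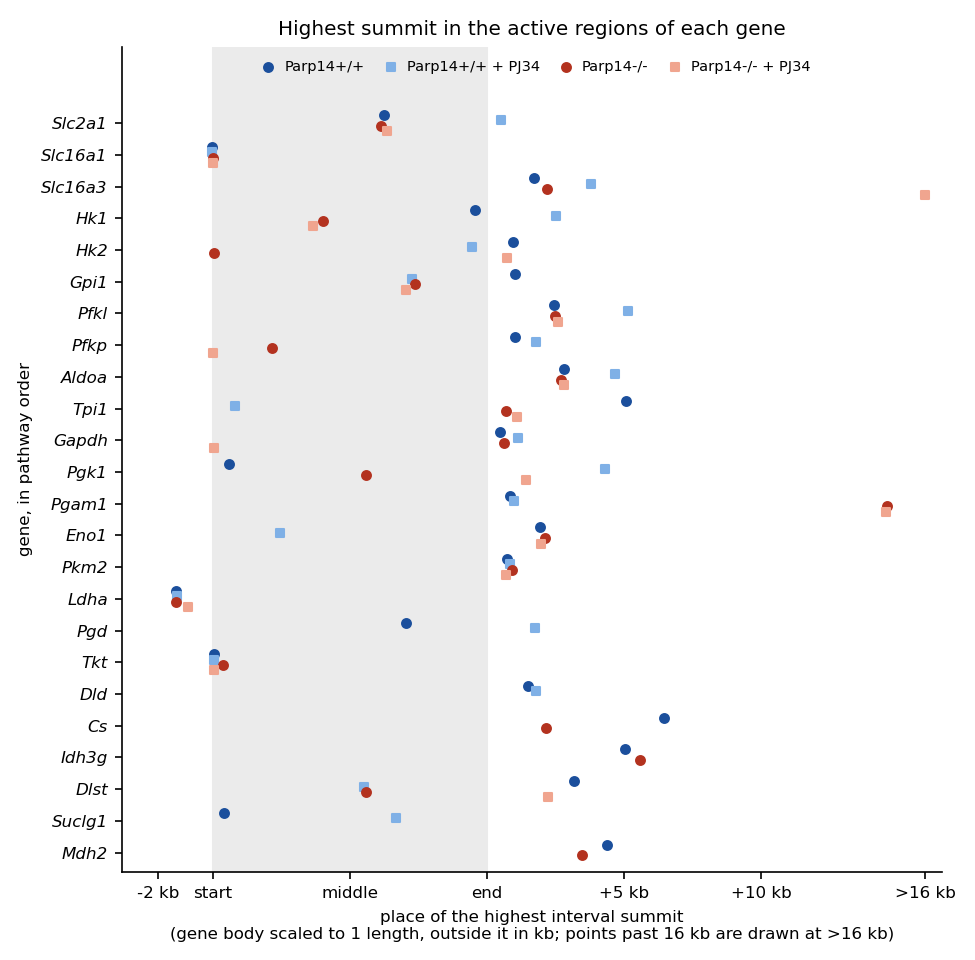
Place of the highest interval summit in the active regions of each gene and library, with the gene body (grey) scaled to 1 length and distances outside it in kb. Of 24, 21, 21 and 18 genes with a summit, it lay past the end of the gene in 16, 12, 11 and 10.

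For most genes of the list the highest peak lay outside the gene. The highest summit lay inside the gene for 6 of 24 genes in Parp14+/+, 7 of 21 in Parp14+/+ + PJ34, 9 of 21 in Parp14-/- and 7 of 18 in Parp14-/- + PJ34. It lay in another annotated gene for 6, 8, 7 and 6 genes. For Pfkl, the liver-type phosphofructokinase, all 4 summits lay in exons of 1810043G02Rik, at least 2432 bp past the end of Pfkl, and the heights were 10.3, 9, 8.67 and 7. For Slc16a3, an exporter of lactate, the summit of Parp14-/- + PJ34 lay 32230 bp past the end in Csnk1d. Tkt, the transketolase of the pentose phosphate pathway, and Slc16a1, a carrier of lactate and pyruvate, were the opposite case. The summits of Tkt were inside the gene in all 4 libraries, with heights of 12, 14, 10 and 14, and those of Slc16a1 lay at its start, 15 and 31 bp before it in the Parp14+/+ libraries and in its first exon in the Parp14-/- libraries, with heights of 16, 18, 14 and 17.

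The length of gene that carried intervals was more often longer in Parp14+/+ than in Parp14-/-, for the list and for the table as a whole. Intervals covered a median of 54.0%, 51.0%, 24.6% and 16.9% of the length of the 24 genes. The covered length was longer in Parp14+/+ for 14 genes and longer in Parp14-/- for 3, and in the PJ34-treated pair for 16 and 2. Over all 8551 lines the shares were 49.9% and 18.6%, and 45.0% and 21.8%. For 11 genes (45.8%) it was longer in Parp14+/+ in both pairs. The share was 29.7% of all lines and 31.8% of lines with an interval in a Parp14+/+ library. For 0 genes it was longer in Parp14-/- in both pairs, against 7.02% and 6.42%. Acceptance of genes by name asks in effect for an interval in a Parp14+/+ library, which favours a longer covered length there. Summed over the 24 genes the covered lengths were 350670, 300044, 270426 and 262866 bp, a ratio of 1.30 untreated and 1.14 with PJ34, where all lines gave 1.38 and 1.26. These sums rest on a few long genes, since Hk1, Pfkp and Hk2 held 49.1%, 57.2%, 64.1% and 64.6% of them.

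**Figure D4:**
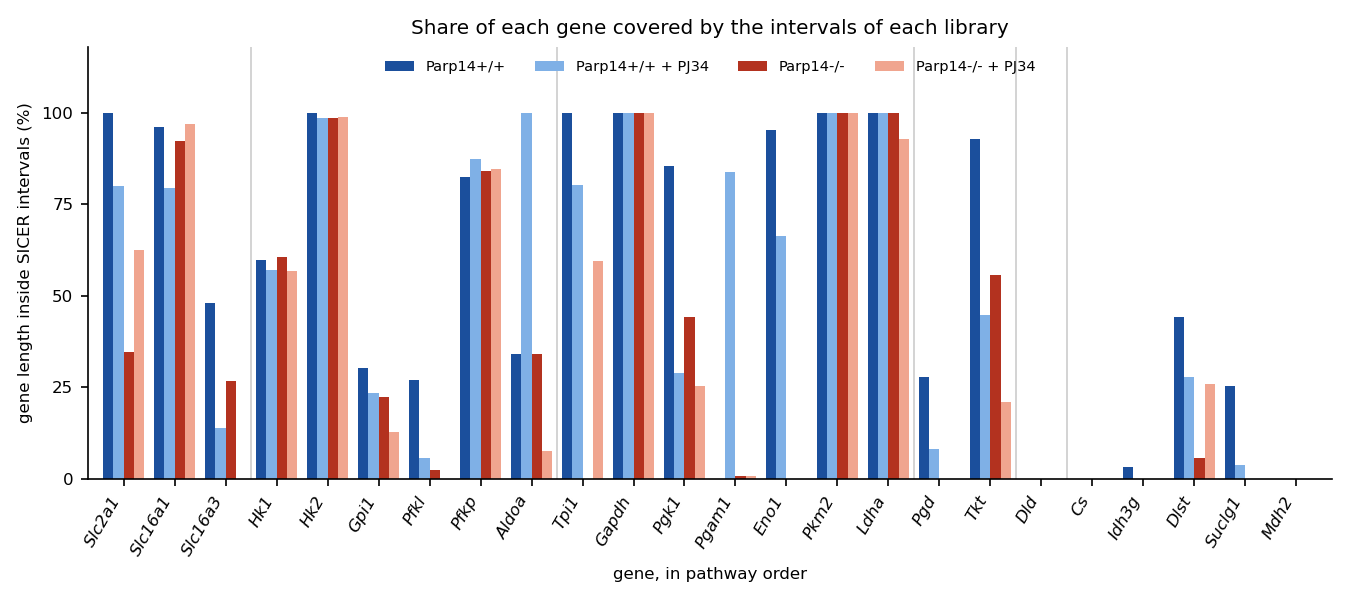
Share of the length of each gene that lay inside SICER intervals, in percent, for each of the 4 libraries. Gapdh and Pkm2 were covered whole in all 4, and Eno1, Pgd and Suclg1 were covered in both Parp14+/+ libraries and in neither Parp14-/- library. The last pattern held for 12.5% of the list and 6.23% of all lines.

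Eno1, the enolase of lymphocytes (chr4:149611364-149622984), was covered in both Parp14+/+ libraries alone, as were Pgd and Suclg1. These 3 are 12.5% of the list, against 6.23% of all lines and 6.69% of those with an interval in a Parp14+/+ library. The reverse, found in 0 genes, was rare in the table too (1.43% and 0.427%). Acceptance by name asks in effect for an interval in a Parp14+/+ library. All 24 genes had one in the untreated library, against 83.1% of all lines. This favours the first pattern over the reverse, so the shares are not a like comparison. Intervals covered 95.4% and 66.4% of Eno1 in Parp14+/+ and Parp14+/+ + PJ34, and 0% in both Parp14-/- libraries. Its heights were 17, 14, 9 and 12, with genotype ratios of 1.89 (0.796 to 4.81) and 1.17 (0.501 to 2.76), and it shared its active region with no other gene. The heights of 9 in Parp14-/- and of 12 in Parp14-/- + PJ34 came from outside the gene or outside an interval, since the only summits there, 9 and 7, lay 2104 and 1960 bp past the end. Heights above every summit of the library's own intervals were also seen in Parp14-/- for other genes with 1 active region. They were Slc2a1 (14 against 10), Aldoa (21 against 16) and Tpi1 (14 against 9). For some genes with more regions the average itself was above the highest summit, in libraries of both genotypes. Examples were Dld (9 against 6) and Pgd (7.5 against 7) in Parp14+/+, and Dlst (8 against 7) in Parp14-/-.

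Pgd, which yields NADPH in the pentose phosphate pathway (chr4:148524094-148540816), was covered over 27.8% and 8.07% in the Parp14+/+ libraries and had no interval in either Parp14-/- library. Its heights were 7.5, 8, 4.5 and 7.5, so that the Parp14-/- library was low and Parp14-/- + PJ34 was not, and the genotype ratios were 1.67 (0.683 to 4.32) and 1.07 (0.494 to 2.32). Suclg1, a subunit of succinyl-CoA ligase (chr6:73198667-73226876), was covered over 25.5% and 3.72%, and likewise had no interval without PARP-14. The heights of Suclg1 were 8.67, 7, 6 and 5.67, with ratios of 1.45 (0.762 to 2.80) and 1.23 (0.621 to 2.49), and its summit of 17 in Parp14+/+ lay in an intron near the start. An absent interval says only that none was detected at this depth.

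Slc2a1, the main glucose transporter of activated T cells (chr4:118781373-118809932), had heights of 13, 19, 14 and 12. Parp14+/+ + PJ34 was the high library, with a PJ34-treated genotype ratio of 1.58 (0.730 to 3.58) and a ratio of Parp14+/+ to Parp14+/+ + PJ34 of 0.684 (0.311 to 1.46). That peak of 19 lay 500 bp past the end of the gene, and the highest summits inside the gene were 13, 11, 10 and 12. Intervals covered 100%, 79.9%, 34.8% and 62.6% of it, less in both Parp14-/- libraries, and by covered length the ratio of Parp14+/+ to Parp14+/+ + PJ34 was 1.25, on the other side of 1.

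Among the TCA genes, Cs, the citrate synthase (chr10:127774888-127799535), had heights of 7.67, 5, 5 and 5.67. Parp14+/+ was above the other 3, with ratios of 1.53 (0.766 to 3.16) to Parp14-/- and 1.53 to Parp14+/+ + PJ34, but its summit of 14 lay 6449 bp past the end in an exon of Coq10a and no interval touched Cs. Mdh2, the mitochondrial malate dehydrogenase (chr5:136254519-136266256), had heights of 6.5, 11, 10.5 and 10, with Parp14+/+ the low library and a ratio of 0.619 (0.285 to 1.30) to Parp14-/-. Its summits lay 4400 and 3472 bp past the end, and no interval touched Mdh2 in any library. Dlst, the core subunit of 2-oxoglutarate dehydrogenase, had heights of 9, 6, 8 and 7.5, with the low value in Parp14+/+ + PJ34. The remaining TCA gene, Idh3g, a subunit of isocitrate dehydrogenase, was level at 6, 6.5, 6 and 6.

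The second question was where PJ34-treated cells differed from untreated cells of the same genotype. The comparisons share libraries with those of genotype. In Parp14+/+ cells 3 genes lay above 1.4 in the untreated library (Cs, Dlst and Gapdh) against 6.23% of all lines, and 2 lay below 0.7 (Tpi1 and Slc2a1) against 9.23% (15.5% in either direction). Among lines with an interval in a Parp14+/+ library the shares were 6.69%, 9.90% and 16.6%. The ratio of Dlst was 1.5 (0.684 to 3.41). The median ratio of the 24 genes was 1.10 (0.923 to 1.2) and that of all lines 0.958. In Parp14-/- cells Pgam1 lay above, against 11.4% of all lines, and 0 of the 24 genes lay below, against 4.01% (15.4% in either direction). Among lines with an interval in a Parp14+/+ library these shares were 10.6%, 3.27% and 13.9%. Mdh2 in Parp14+/+ cells, with a ratio of 0.591, and Pgd in Parp14-/- cells, with 0.6, were past the lower limit but had no interval in the higher library. The median of the 24 genes was 1.08 (0.971 to 1.17), the same as that of all lines, which was shifted by 0.12 on the log2 scale. No gene was beyond the same limit in both genotypes, as were 1.13% of all lines. The ratio lay above 1 in both genotypes for 9 genes (Hk2, Pfkl, Aldoa, Gapdh, Ldha, Slc16a3, Dld, Dlst and Suclg1), below 1 in both for 3 (Hk1, Slc16a1 and Pgd), and on opposite sides for 10. Over all lines these shares were 22.1%, 17.3% and 42.7%, where the list had 37.5%, 12.5% and 41.7%. After division by the median of all lines the counts were 8, 4 and 11.

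The genotype ratio lay above 1 in both pairs for 9 genes, below 1 in both for 4 (Hk1, Hk2, Aldoa and Ldha) and on opposite sides for 7. These are 37.5%, 16.7% and 29.2% of the list, against 34.6%, 15.3% and 34.8% of all lines, and after division by the medians the counts were 7, 5 and 10. Aldoa, the aldolase that splits the hexose into triose phosphates, had heights of 17, 15, 21 and 16, with all summits in or near Ppp4c past its end. Pfkp, the platelet-type phosphofructokinase, had heights of 14, 14.5, 14 and 11.5. Pgk1, the first enzyme of glycolysis to make ATP, had heights of 11, 10, 8 and 10, and intervals covered 85.6%, 28.9%, 44.3% and 25.3% of it, most in the Parp14+/+ library.

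The 7 genes found by locus alone had heights from 3 to 11. Nearly all lines with a name off their locus had no interval in a Parp14+/+ library, and accordingly G6pdx, Pdha1 (the catalytic subunit of pyruvate dehydrogenase) and Ogdh (the first subunit of 2-oxoglutarate dehydrogenase) had an interval in a Parp14-/- library only. Pgls, Rpia, Idh2 and Mdh1 had none in any library. Mdh1, the cytosolic malate dehydrogenase, had heights of 7, 6, 3 and 5, Rpia, which isomerizes ribose phosphate, had heights of 7, 4.5, 4 and 5.5, and Idh2, the mitochondrial NADP-linked isocitrate dehydrogenase, had heights of 6, 3, 7 and 7. Pdha1 was at 4.5, 5, 5 and 4.5 and Ogdh at 6, 6.5, 6.25 and 6.75. Pgls, the lactonase of the pentose phosphate pathway, had heights of 11, 8, 11 and 8 in a region it shares with Fam129c and Slc27a1.

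Of 62 other genes of these pathways, which took in further isoenzymes, subunits and regulators, 45 had a line on their locus and 29 of these bore their name. Of these 45, 3 lay above and 2 below in the untreated genotype pair, against 11.0% and 8.99% of all lines. In the PJ34-treated pair 6 lay above and 1 below, against 19.8% and 4.58%. For PJ34 in Parp14+/+ it was 0 and 1, against 6.23% and 9.23%, and in Parp14-/- 1 and 1, against 11.4% and 4.01%. These are not like comparisons, since all 8551 lines have an interval in a library. Some of the 45 genes, such as Pfkfb2, Bpgm and Pgm1, had none and could not be counted in either direction. Those found by locus alone had none in a Parp14+/+ library and could not be counted as above by genotype. Myc, which drives the glycolytic program of activated T cells, had heights of 40, 42, 71 and 62. Both Parp14-/- libraries were higher, with ratios of 0.563 (0.373 to 0.842) and 0.677 (0.447 to 1.02), and intervals covered all 5021 bp of the gene in each library. Hif1a, the oxygen-regulated subunit of HIF-1, had heights of 65, 88, 77 and 77, and its genotype ratios of 0.844 and 1.14 lay on opposite sides of 1. Egln1, an oxygen sensor that marks HIF-1 for destruction, had heights of 18, 17, 10 and 13 and lay above the limit untreated, but its summits lay from 5654 to 10726 bp past its end, in a region shared with Exoc8 and Gm505. Sdhb and Sdhd, subunits of succinate dehydrogenase, also lay above untreated, both at 1.43, and in the PJ34-treated pair the ratio of Sdhd was 1.47 and that of Sdhb 0.75, on the other side of 1. Txnip, an inhibitor of glucose uptake, had heights of 21, 28, 31 and 32 and lay below it in the untreated pair. Hif1a was named for its role and after its values were seen.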

How the data were processed

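RNA Polymerase II phosphoserine 2 ChIP-Seq of 4 libraries was analysed, 1 per condition. By the study's methods, reads were mapped with ELAND, duplicates were removed, and all libraries and the Input were reduced to the same number of alignments. The submitters' processing notes name SICER and mm9. The authors deposited a gene table with an average peak height (signal) and an interval call per gene and library, and interval tracks whose signal is the pileup height of each interval. The 8 columns of other libraries in the gene table were not used, and no Input value per gene was used. The fit of names to loci was checked against the annotation. Of lines with an interval in a Parp14+/+ library, 11 of 6439 names (0.171%) were off their locus, against 2474 of 2766 (89.4%) of the other lines.

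Ratios of heights were taken without a pseudocount. A gene was beyond a limit above 1.4 or below 0.7 with an interval in the higher library. Intervals of ratios are exact binomial (Clopper-Pearson, 95%) on heights summed over active regions and treated as counts. They were tried on simulated Poisson counts. That trial cannot show how they hold for these heights, which are maxima of pile-ups and not counts. Python 3.11.15, numpy 2.4.6, pandas 2.3.3, scipy 1.17.1 and matplotlib 3.10.9 were used. With 1 library per condition no test was made.

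The genes, lists and limits were chosen with earlier results of these data known. Values in each library were to be given for genes beyond the same limit in both genotype or both PJ34 pairs, genes whose interval excluded 1, and the 5 with the highest mean height. Of other pathway genes, at most the 3 highest and 3 lowest by untreated ratio were to be named. Apart from Hif1a, those named were the ones beyond a limit in the untreated pair. Lines with more extreme ratios but no interval in the higher library, such as Pgm1 with 4, were not named. Other genes given with their values were named after these were seen. Alternatives varied the scaling, the interval requirement, the minimum signal, the measure, the limits, the pseudocount, shared regions and how genes were found.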

Additional observations from a re-analysis of the deposited data

Results flagged for a closer look

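For 5 genes the ratio lay on opposite sides of 1 in the pairs compared and past a limit in 1 of them, 20.8% of the 24, against 1450 of 8551 lines. None of these differences was tested, since each condition is 1 library. For Slc2a1 the genotype ratio was 0.929 untreated and 1.58 with PJ34, and the ratio of untreated to PJ34-treated was 0.684 in Parp14+/+ and 1.17 in Parp14-/-. For Tpi1 the ratio of untreated to PJ34-treated was 0.545 in Parp14+/+ and 1.17 in Parp14-/-. Pgam1 had a genotype ratio of 0.591 untreated and 1.21 with PJ34, and PJ34 ratios of 0.897 in Parp14+/+ and 1.83 in Parp14-/-. Cs had a genotype ratio of 1.53 untreated and 0.882 with PJ34, and PJ34 ratios of 1.53 in Parp14+/+ and 0.882 in Parp14-/-. The genotype ratio of Mdh2 was 0.619 untreated and 1.10 with PJ34.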

How the results depend on the processing

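No paired analysis was possible because the labels give no replicate numbers and each condition has 1 library, so that no replicate could be left out either. Of 44 counts of genes beyond the limits 23 stayed within 1.5 times the count as reported, and of 36 medians 33 moved by less than their interval; where a value moved, the cause was not tested. In the untreated genotype pair the count of 10 of 24 was 4 of 10 with a summed height of at least 50, 3 of 15 by the highest interval over the gene, 6 of 15 by covered length, 2 of 8 by the highest summit inside the gene (a measure chosen after seeing the data), 16 with a second tier of limits (1.2 and 0.83 where a height is above the median of its library, since the study's own height limit is on another scale) and 0 with limits of 2 and 0.5. In the PJ34-treated pair the count of 5 of 24 was 3 after scaling by the median of all lines, 2 of 7 with a summed height of at least 50, 3 with a pseudocount of 1, 9 with the second tier and 1 with limits of 2 and 0.5. For PJ34 in Parp14+/+ the count of 5 of 24 was 2 of 9 with a summed height of at least 50, 9 of 19 by covered length (median 1.25), 2 of 11 by the summit inside the gene and 0 with the wide limits. For PJ34 in Parp14-/- the count of 1 of 24 was 2 after scaling, 2 with no interval required, 2 of 14 by the highest interval over the gene (median 0.951), 6 of 14 by covered length, 8 with the second tier and 0 with the wide limits, and the median was 0.857 by the summit inside the gene. By covered length Hk1 was level at 1.00 in the PJ34-treated genotype pair, and Slc2a1 (1.25) and Tpi1 (1.25) turned to the other side of 1 for PJ34 in Parp14+/+. Pgam1 turned to 0.667 for PJ34 in Parp14-/- by the highest interval over the gene, where the intervals reach 55 bp of it. Of the medians, 3 crossed 1 within their interval, to 0.982 untreated with a summed height of at least 50, to 0.955 in the PJ34-treated pair after scaling and to 0.995 for PJ34 in Parp14+/+ without genes that share their values. Scaling took Slc2a1 (1.39) and Gpi1 (1.24) back inside the limits in the PJ34-treated pair and Slc2a1 (0.714) for PJ34 in Parp14+/+, brought in Slc16a3 and Eno1, and moved 8 of 96 ratios to the other side of 1. Each ratio stayed within its counting interval after scaling, as did 41 of 64 by covered length and 62 of 64 by the highest interval.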
